A study of Mus musculus with 8 samples.

Results

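Immediate early genes are switched on within minutes of receptor signalling, before new protein is made, and many of their products are transcription factors that set the later response. The 10 genes described here were chosen by name from 3 such families, the NR4A receptors (*Nr4a1*, *Nr4a2* and *Nr4a3*), the EGR factors (*Egr1*, *Egr2* and *Egr3*) and the AP-1 subunits (*Fos*, *Jun*, *Junb* and *Fosl2*), out of 55536 genes in the count tables. All 10 were among the 11189 genes that passed the expression filter of more than 3 CPM (counts scaled per library size) in at least 4 libraries.

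The cells were OT-I CD8+ T lymphocytes, in which a transgenic receptor recognises SIINFEKL, a peptide of ovalbumin. Lymph node cells of Rag-1KO C57BL/6 OT-I mice aged 5 to 12 weeks, with congenic CD45.2 or CD45.1 alleles, were activated with 100 nM SIINFEKL for 2 days, washed, and expanded for 2 days in 20 ng/mL recombinant human IL-2. The 4 GC7 libraries come from cells given 10 µM GC7 during the IL-2 culture, and the 4 Mock libraries from cells given the acetic acid vehicle. GC7 is a spermidine analogue that inhibits deoxyhypusine synthase, the first enzyme in the hypusine modification of the translation factor eIF5a, and it has further targets. Both groups share the activation, the washing and the IL-2, and no restimulation is described before the cells were harvested, so the values are levels in expanding effector cells and not the burst that follows receptor engagement.

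The NR4A proteins are orphan nuclear receptors that can bind DNA without a ligand, and *Nr4a1* (Nur77) is widely used to report T cell receptor signal strength. EGR proteins are zinc finger factors held back by NAB corepressors, and EGR2 and EGR3 are known for restraining T cell responses and for T cell anergy. AP-1 is a dimer of FOS and JUN family proteins that binds DNA together with NFAT after receptor and costimulatory signals, and several of these mRNAs are short-lived because AU-rich elements in the 3′ UTR direct their decay.

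Among the 10 genes, the NR4A and EGR families each held genes that rose and genes that fell, and none of the 4 AP-1 subunits chosen rose. In GC7-treated cells 6 of the 10 genes fell (*Nr4a1*, *Egr1*, *Egr2*, *Fos*, *Jun* and *Junb*), 3 rose (*Nr4a2*, *Nr4a3* and *Egr3*), and *Fosl2* did not pass the test. Calls are at a false discovery rate (FDR) under 0.01 in edgeR's quasi-likelihood test, adjusted over all 11189 genes tested. At that threshold 23.5% of all tested genes were lower and 23% higher, so being called is common in this comparison. By more than 2-fold, 2 of the 10 fell (*Egr1* and *Fos*) and 2 rose (*Nr4a3* and *Egr3*), where 5.31% of tested genes were lower and 3.17% higher by that much. In 9 of the 10 genes the GC7 and Mock libraries did not overlap. All GC7 libraries lay below all Mock libraries in 6 genes, against 27.5% of tested genes, and above them in 3 genes, against 28.1%. The median log2 fold change of all tested genes was 0.02. With library totals in place of TMM factors the balance of calls over all genes moved from 2635 lower and 2579 higher to 2056 lower and 3346 higher, while the counts for the 10 genes stayed at 6 and 3.

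**Figure D1:**
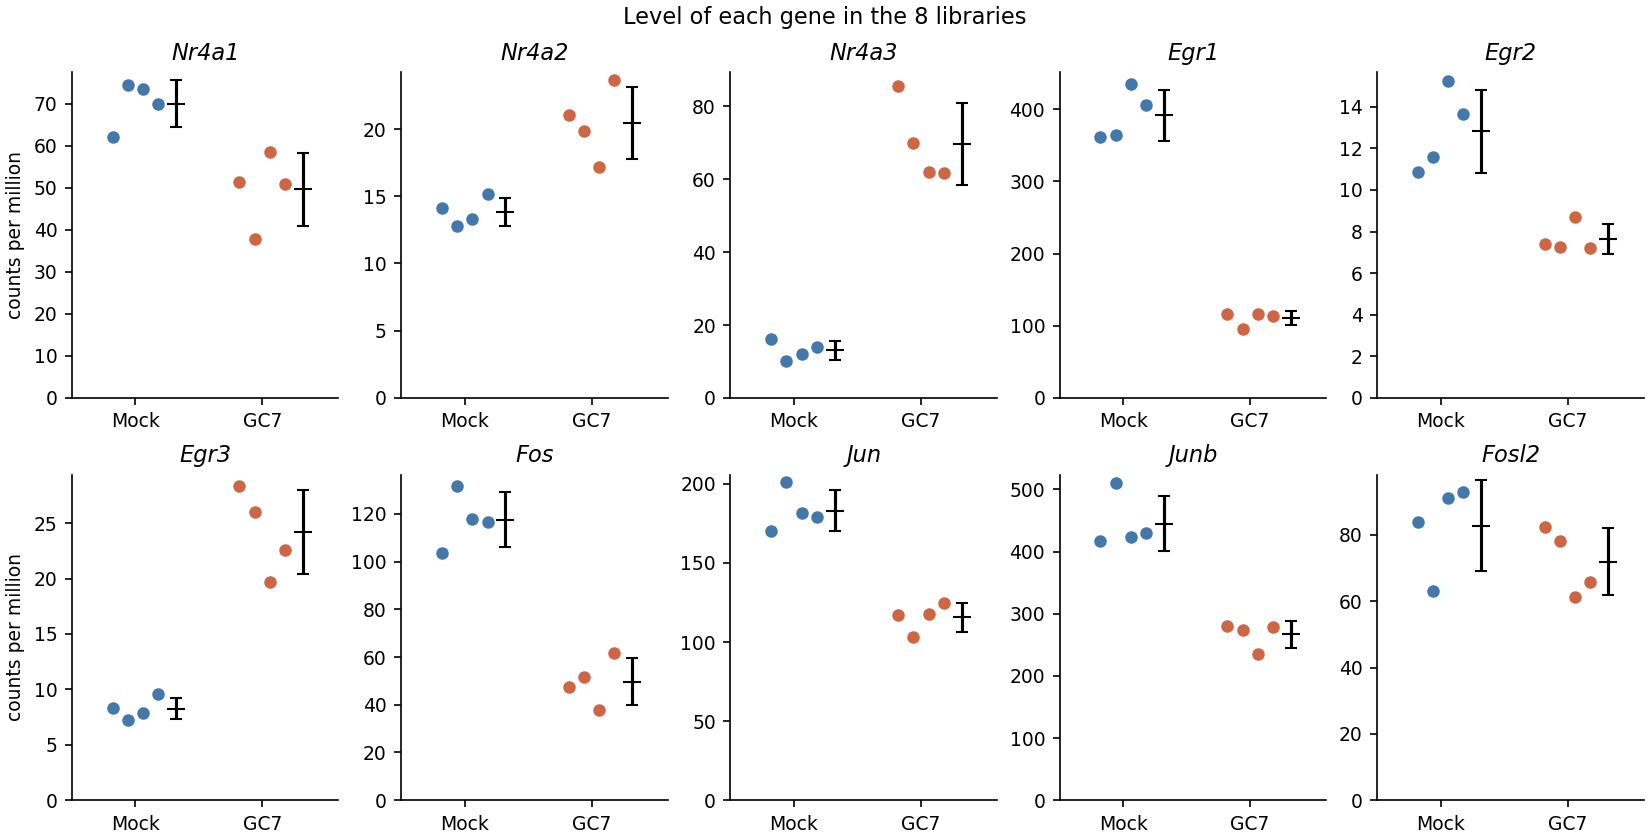
Level of each of the 10 genes, in CPM on an axis that starts at 0, in the 4 Mock (blue) and 4 GC7 (orange) libraries. Each point is 1 library and the black bars give mean ± SD. *Nr4a3* went from 13.1 to 69.8 CPM on average and *Egr1* from 392 to 111 CPM, and *Fosl2* is the gene whose groups overlap.

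Between 17528776 and 25284730 counts were assigned to genes per library, and the raw counts of the 10 genes lay between 152 and 12003. The T cell identity of the samples is plain in the counts, with *Cd8a* at 703 ± 27.6 CPM in Mock and 978 ± 30.4 CPM in GC7 (SD, n = 4 each), a log2 fold change of 0.48. Of 9 T cell markers tested, 6 fell and 1 rose (*Cd8a*), where 23.5% of all tested genes were lower and 23% higher. On the log2 scale *Lck* fell by 0.64, *Cd2* by 0.61 and *Thy1* by 0.53. The summed level of the 9 markers was 5028 to 5905 CPM in Mock and 4166 to 4518 CPM in GC7. Markers of other cells were mostly low. The 5 B cell markers summed to 7.02 to 10.1 CPM in Mock and 4.63 to 5.93 CPM in GC7, with *Ms4a1* and *Pax5* at 0 in every library. The 10 myeloid and dendritic cell markers summed to 9.23 to 11.8 CPM in Mock and 9.47 to 14.6 CPM in GC7, with *C1qa* at 0 in every library. The 3 CD4 and regulatory T cell markers summed to 93.1 to 97.5 CPM in Mock and 75.6 to 85.0 CPM in GC7, nearly all of it *Zbtb7b*, with *Cd4* at 0.2 and 0.3 CPM. The 4 NK cell markers summed to 92.4 to 110 CPM in Mock and 71.5 to 88.3 CPM in GC7, mostly *Klrd1*, which activated CD8+ T cells also express, with *Ncr1* and *Klrb1c* near 0. The 6 stromal and endothelial markers summed to 73.3 to 77.6 CPM in Mock and 52.2 to 57.4 CPM in GC7, mostly *Pecam1* and *Epcam*, with *Col3a1* and *Cdh5* at 0 in every library. The part of these differences in the results below was not tested. In bulk RNA, fewer cells that express a gene and less of its RNA in each cell cannot be told apart.

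Within the Mock group, Mock 2 was the highest library for *Nr4a1*, *Fos*, *Jun* and *Junb* and the lowest for *Nr4a2*, *Nr4a3*, *Egr3* and *Fosl2*. Within the GC7 group, GC7 3 was the lowest library for 5 genes (*Nr4a2*, *Egr3*, *Fos*, *Junb* and *Fosl2*) and the highest for 2 (*Nr4a1* and *Egr2*). Without both of these libraries 3 of the 10 genes rose and 7 fell, *Fosl2* being the addition.

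The promoter windows of the 3 NR4A genes are shown because these paralogs moved in different directions, and those of *Egr2* and *Fos* because they are fallen members of the other families. They are RefSeq windows of GRCm38.p6, from 250 bases before to 50 after an annotated start, and 8 of the 10 genes have at least 1 in the table used, all but *Egr1* and *Egr3*. Capitals mark matches, on either strand, to the EGR site GCGNGGGCG, to the CArG box that serum response factor binds, and to TGACG, the half-site of the cAMP response element. The windows are *Nr4a1* at chr15:101266596-101266895 on the plus strand, *Nr4a2* at chr2:57123954-57124253 on the minus strand, *Nr4a3* at chr4:48045055-48045354 on the plus strand, *Egr2* at chr10:67537619-67537918 on the plus strand (1 of 5 annotated starts) and *Fos* at chr12:85473640-85473939 on the plus strand, each written 5′ to 3′ along its gene.
Nr4a1: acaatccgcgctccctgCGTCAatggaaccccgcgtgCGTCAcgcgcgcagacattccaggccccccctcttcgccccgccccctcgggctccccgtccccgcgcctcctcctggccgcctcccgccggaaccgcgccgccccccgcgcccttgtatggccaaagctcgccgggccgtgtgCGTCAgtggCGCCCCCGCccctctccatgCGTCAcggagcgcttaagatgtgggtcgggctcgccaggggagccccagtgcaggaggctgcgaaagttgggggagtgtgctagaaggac
Nr4a2: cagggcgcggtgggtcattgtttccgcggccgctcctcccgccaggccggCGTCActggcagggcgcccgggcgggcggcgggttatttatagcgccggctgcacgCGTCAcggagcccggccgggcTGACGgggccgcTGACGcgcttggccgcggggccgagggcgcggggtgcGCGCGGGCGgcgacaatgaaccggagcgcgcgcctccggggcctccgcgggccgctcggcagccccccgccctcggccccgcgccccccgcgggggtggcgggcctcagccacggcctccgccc
Nr4a3: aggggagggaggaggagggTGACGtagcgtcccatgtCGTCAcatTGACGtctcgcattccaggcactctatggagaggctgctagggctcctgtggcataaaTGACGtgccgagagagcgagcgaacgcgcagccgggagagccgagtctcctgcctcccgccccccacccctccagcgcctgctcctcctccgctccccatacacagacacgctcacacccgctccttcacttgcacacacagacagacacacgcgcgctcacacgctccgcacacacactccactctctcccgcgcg
Egr2: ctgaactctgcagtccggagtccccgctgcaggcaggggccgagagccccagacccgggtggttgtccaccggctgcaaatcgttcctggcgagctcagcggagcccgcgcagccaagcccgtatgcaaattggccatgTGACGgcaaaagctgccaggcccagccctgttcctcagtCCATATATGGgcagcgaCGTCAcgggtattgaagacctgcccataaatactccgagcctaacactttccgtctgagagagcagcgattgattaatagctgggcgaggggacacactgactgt
Fos: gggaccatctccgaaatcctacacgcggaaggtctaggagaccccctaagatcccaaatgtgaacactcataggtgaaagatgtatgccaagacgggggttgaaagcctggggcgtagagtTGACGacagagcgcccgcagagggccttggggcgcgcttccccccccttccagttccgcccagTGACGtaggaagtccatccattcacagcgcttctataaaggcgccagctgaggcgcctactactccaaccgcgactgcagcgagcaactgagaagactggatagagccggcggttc

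The *Nr4a1*, *Nr4a2* and *Nr4a3* windows each hold 4 half-sites. Outside chromosome 18, at least 1 half-site is in 20.8% of all 32817 windows of this length and in 32.4% of the 10609 windows of tested genes. The shares with 3 or more are 1.03% and 2.45%, and this motif was added after the windows had been read. The *Egr2* and *Fos* windows shown hold 2 half-sites each and the *Junb* window holds 1. The complete element, TGACGTCA, is in 1.79% of all windows, in 3.23% of those of tested genes and in none of the windows of the 8 members searched. Nor do the members' windows hold the AP-1 site TGANTCA (7.81% of all windows and 4.77% of those of tested genes) or the NR4A element AAAGGTCA (1.51% and 0.961%). An EGR site is in 5.55% of all windows, in 10.7% of those of tested genes and in those of *Nr4a1*, *Nr4a2* and *Fosl2*. A CArG box is in 1.63% of all windows, in 1.24% of those of tested genes and in 4 of the 5 *Egr2* windows, 3 of which share the same box. The NFAT core GGAAA, short enough to be in 61.3% of all windows and 59.0% of those of tested genes, is in those of *Nr4a2* and *Jun* and in 4 of the 5 for *Egr2*. The members' windows are 56 to 81.7% G and C, above the median of 52.7% over all windows. The median over the windows of tested genes was not computed. A match of letters is not evidence of binding, and its absence says only that the letters are not in the window.

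Among the NR4A receptors, *Nr4a3* (Nor1; chromosome 4, 48045153 to 48086447, GRCm38) moved most. Its level was 16.3, 10.2, 11.9 and 14.0 CPM in Mock 1 to 4 and 85.6, 70.1, 61.9 and 61.6 CPM in GC7 1 to 4. Even the lowest GC7 library was far above the highest Mock library. The log2 fold change was 2.42 ± 0.144 (SE; FDR = 4.6e-08), or 5.34-fold, which is higher than the value of 99.6% of tested genes.

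*Nr4a1* (chromosome 15, 101254269 to 101274795), the receptor signal reporter, went the other way. Mock 1 to 4 had 62.2, 74.5, 73.5 and 70.0 CPM, and GC7 1 to 4 had 51.4, 37.7, 58.7 and 51.0 CPM. The groups were close but did not overlap, since the highest GC7 library stayed under the lowest Mock library. It fell by 0.50 on the log2 scale (SE 0.114, FDR = 0.00246).

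*Nr4a2* (Nurr1; chromosome 2, 57106830 to 57124003) rose modestly. Its level was 14.1, 12.8, 13.3 and 15.2 CPM in Mock 1 to 4 and 21.03, 19.9, 17.2 and 23.7 CPM in GC7 1 to 4. Every GC7 library was above every Mock library. The log2 fold change was 0.57 ± 0.104 (SE; FDR = 5.2e-04).

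Per length of exon the make-up of the family changed more than its sum. *Nr4a1* gave 78.0 ± 3.26% of the summed NR4A level in Mock (CPM per kb, SD, n = 4) and 45.8 ± 6.09% in GC7. The share of *Nr4a3* was 8.64 ± 2.09% in Mock and 37.8 ± 5.24% in GC7, while that of *Nr4a2* was 13.4 ± 1.25% and 16.4 ± 2.51%. The summed level was 25.6 ± 1.10 CPM per kb in Mock and 30.9 ± 2.77 CPM per kb in GC7, with no overlap. The log2 ratio of *Nr4a3* to *Nr4a1*, per kb of exon, lay between -3.63 and -2.70 in Mock and between -0.69 and 0.12 in GC7. On this scale *Nr4a3* was thus below *Nr4a1* in all Mock libraries and in GC7 1, 3 and 4, and above it in GC7 2 only. In CPM, without division by length, *Nr4a3* was above *Nr4a1* in every GC7 library and below it in every Mock library, so the order in GC7 depends on the exon lengths used. *Rxra* and *Rxrb* encode retinoid X receptors, with which NR4A1 and NR4A2 can dimerise, and neither of these 2 passed the test. *Rxra* had 11.5 ± 1.17 CPM in Mock and 9.003 ± 2.60 CPM in GC7 (FDR = 0.11) and *Rxrb* had 94.2 ± 7.71 and 85.8 ± 7.28 CPM (FDR = 0.15).

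**Figure D2:**
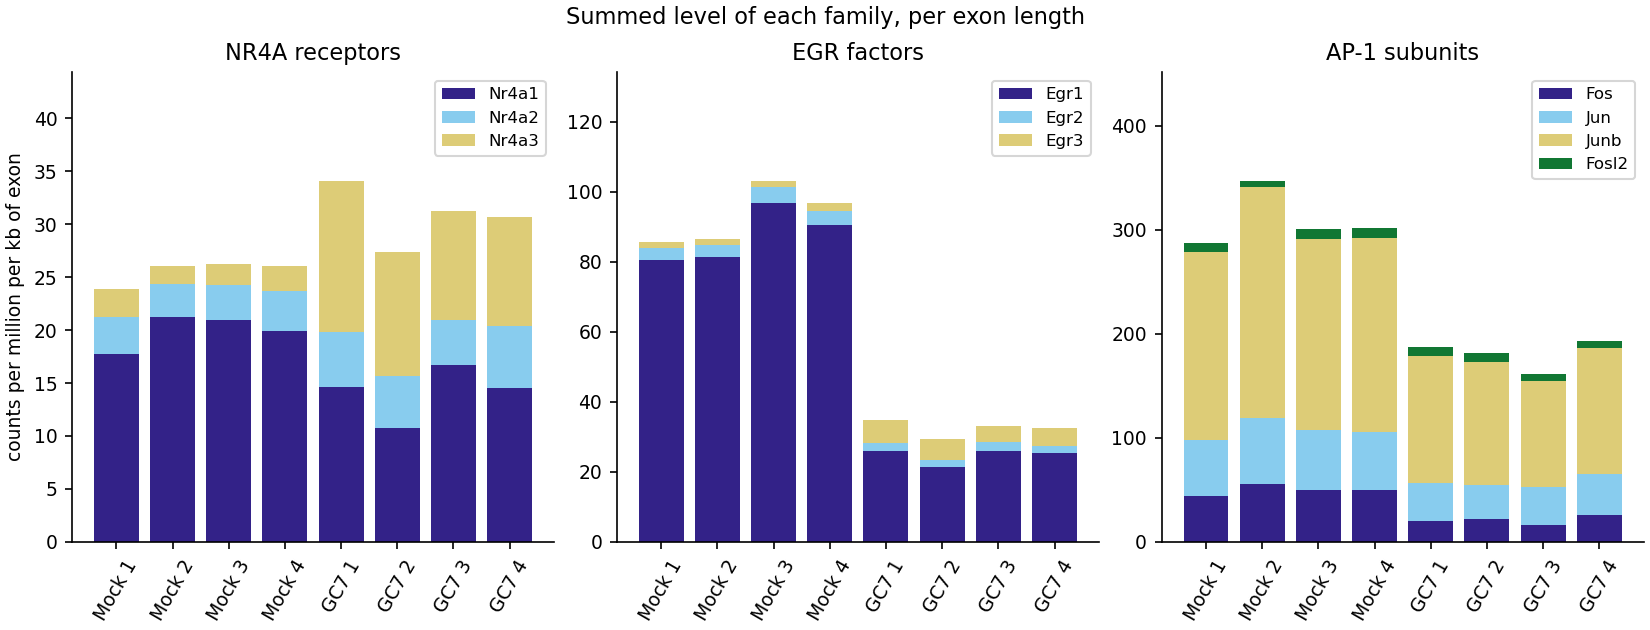
Summed level of the chosen genes of each family in each library, in CPM per kb of exon on axes that start at 0, with each bar split by gene. The AP-1 bars hold *Fos*, *Jun*, *Junb* and *Fosl2* only and leave out *Jund* and *Fosb*. The NR4A bars change mainly in make-up, with *Nr4a3* growing from 8.64% to 37.8% of the sum, while the EGR bars shrink from 93.0 to 32.4 CPM per kb and the AP-1 bars from 309 to 181 CPM per kb.

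The EGR genes also divided. *Egr1* (chromosome 18, 34859823 to 34864984), the EGR gene with the highest level in both groups, fell furthest of the 10 genes. Mock 1 to 4 had 361, 365, 434 and 406 CPM and GC7 1 to 4 had 117, 95.5, 117 and 113 CPM. The highest GC7 library was at less than the lowest Mock library by a wide margin, and GC7 2 stood below its 3 companions. The gene fell by 1.82 on the log2 scale (SE 0.0858, FDR = 6.0e-09), a level 3.54-fold higher in Mock, and 1.83% of tested genes had a lower log2 fold change.

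*Egr2* (chromosome 10, 67535475 to 67542188) fell less. It had 10.9, 11.6, 15.2 and 13.6 CPM in Mock 1 to 4 and 7.40, 7.24, 8.71 and 7.23 CPM in GC7 1 to 4. All GC7 libraries were below all Mock libraries, with GC7 3 apart from the other 3 on the high side. It fell by 0.75 on the log2 scale (SE 0.125, FDR = 2.5e-04).

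*Egr3* (chromosome 14, 70077203 to 70082614), often described together with *Egr2* in T cell anergy, rose. Its level was 8.31, 7.27, 7.88 and 9.57 CPM in Mock 1 to 4 and 28.3, 26.0, 19.7 and 22.6 CPM in GC7 1 to 4. The lowest GC7 library had more than the highest Mock library. The log2 fold change was 1.55 ± 0.126 (SE; FDR = 6.2e-07), or 2.93-fold.

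*Egr3* passed *Egr2* in the GC7 libraries. Per length, the log2 ratio of *Egr3* to *Egr2* was between -1.33 and -0.76 in Mock and between 0.80 and 1.56 in GC7, so *Egr2* was the higher of the pair in every Mock library and *Egr3* in every GC7 library. *Egr1* gave 93.9 ± 0.240% of the summed EGR level in Mock and 76.1 ± 2.75% in GC7, and *Egr3* gave 2.02 ± 0.244% and 17.0 ± 2.94%. The sum itself was 93.0 ± 8.44 CPM per kb in Mock and 32.4 ± 2.23 CPM per kb in GC7 (SD, n = 4). The corepressors that bind EGR proteins did not pass the test, with *Nab1* at 66.7 ± 4.22 and 70.4 ± 10.1 CPM (log2 fold change 0.08 ± 0.097, SE) and *Nab2* at 44.7 ± 3.57 and 39.6 ± 6.10 CPM (-0.17 ± 0.105). *Egr4* did not reach the filter, with between 0 and 9 counts per library.

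**Figure D3:**
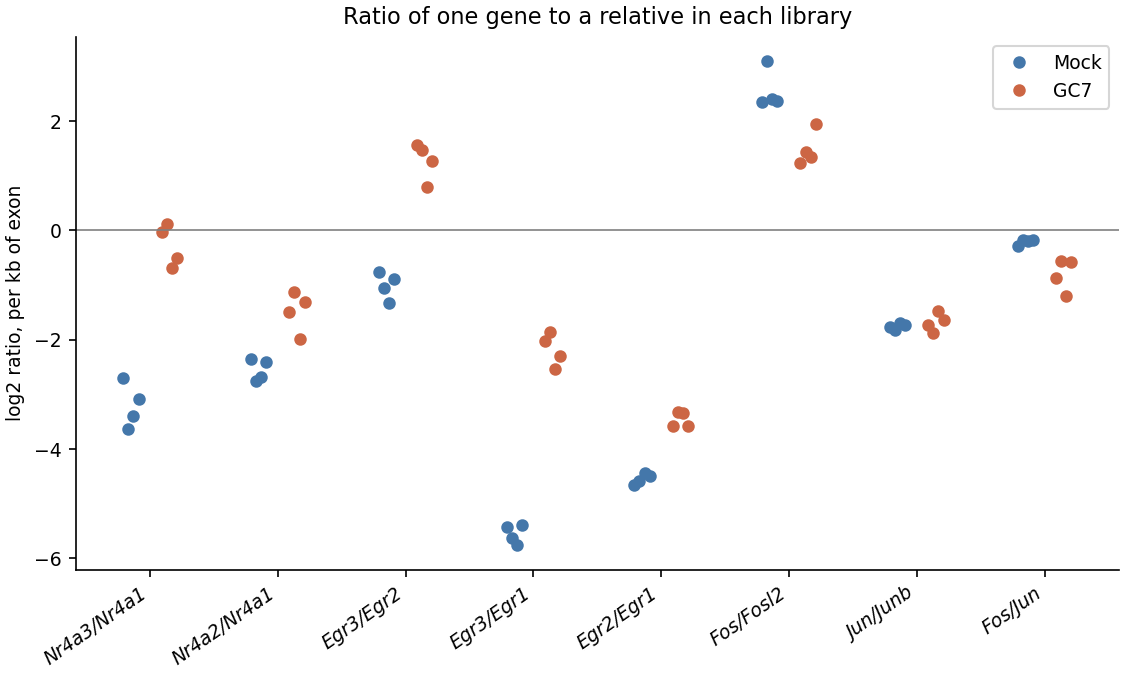
Log2 ratio of one gene to a relative in each library, per kb of exon, for Mock (blue) and GC7 (orange). A value above 0 means that the first gene is the more abundant on that scale. *Egr3*/*Egr2* lies below 0 in all Mock libraries and above 0 in all GC7 libraries, *Nr4a3*/*Nr4a1* is above 0 in GC7 2 only, and *Jun*/*Junb* overlaps between the groups.

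Of the 4 AP-1 subunits chosen, 3 fell and none rose. *Fos* (chromosome 12, 85473890 to 85477273), the partner of JUN proteins in the classical AP-1 dimer, had 104, 132, 118 and 117 CPM in Mock 1 to 4 and 47.3, 51.5, 37.9 and 61.8 CPM in GC7 1 to 4. The GC7 libraries were all well below the Mock libraries. It fell by 1.24 on the log2 scale (SE 0.125, FDR = 4.1e-06), a level 2.36-fold higher in Mock.

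*Jun* (chromosome 4, 95049034 to 95052222), which can also pair with itself, had 170, 201, 182 and 179 CPM in Mock 1 to 4. In GC7 1 to 4 it had 117, 103, 117 and 125 CPM. No GC7 library reached the lowest Mock library, and the gene fell by 0.66 on the log2 scale (SE 0.0737, FDR = 9.7e-06). The antisense gene *Junos* overlaps *Jun*, and had at most 32 counts in a library.

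*Junb* (chromosome 8, 84974484 to 84978718), a JUN protein with weaker activating function than JUN, was the most abundant of the 10 per length in both groups. Mock 1 to 4 had 417, 510, 424 and 430 CPM and GC7 1 to 4 had 280, 274, 235 and 279 CPM. Mock 2 stood above the other Mock libraries and GC7 3 below the other GC7 libraries, and the groups did not overlap. The gene fell by 0.74 on the log2 scale (SE 0.0832, FDR = 1.1e-05). *Junb* overlaps *Prdx2*, a gene on the opposite strand, and the strand setting of the counting is not given in the sources used here. *Prdx2* had 169 CPM in Mock and 163 CPM in GC7, a log2 fold change of -0.05 (FDR = 0.63).

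*Fosl2* (Fra-2; chromosome 5, 32135801 to 32157842) is the gene that was not called. Mock 1 to 4 had 83.9, 63.2, 91.2 and 93.0 CPM and GC7 1 to 4 had 82.4, 78.2, 61.3 and 65.9 CPM. The groups overlapped, with Mock 2 below 3 of the 4 GC7 libraries. The log2 fold change was -0.20 ± 0.124 (SE; FDR = 0.18). The FDR was 0.0106 without Mock 2 and 0.00693 without both Mock 2 and GC7 3.

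The summed level of the 4 AP-1 genes was 309 ± 26.2 CPM per kb in Mock and 181 ± 13.9 CPM per kb in GC7. *Junb* kept a like share of it, 62.5 ± 1.18% in Mock and 64.2 ± 1.42% in GC7, and *Jun* had 18.6 ± 0.329% and 20.1 ± 2.07%. The share of *Fos* was 16.1 ± 0.580% in Mock and 11.6 ± 1.57% in GC7, with no overlap of libraries. The log2 ratio of *Fos* to *Jun*, per kb of exon, lay between -0.28 and -0.17 in Mock and between -1.19 and -0.56 in GC7, again without overlap.

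Per length of exon, the order in Mock was *Junb* (193 ± 19.0 CPM per kb), *Egr1* (87.3 ± 7.79), *Jun* (57.4 ± 4.05), *Fos* (50.0 ± 4.90), *Nr4a1* (20.0 ± 1.59), *Fosl2* (8.56 ± 1.41), *Egr2* (3.77 ± 0.586), *Nr4a2* (3.41 ± 0.255), *Nr4a3* (2.19 ± 0.438) and *Egr3* (1.87 ± 0.221). The libraries of *Jun* and *Fos*, of *Egr2* and *Nr4a2*, and of *Nr4a3* and *Egr3* overlapped, and the other neighbours in this order were apart. In GC7 the order was *Junb* (116 ± 9.41), *Jun* (36.3 ± 2.84), *Egr1* (24.7 ± 2.28), *Fos* (21.1 ± 4.21), *Nr4a1* (14.2 ± 2.48), *Nr4a3* (11.7 ± 1.88), *Fosl2* (7.43 ± 1.03), *Egr3* (5.48 ± 0.862), *Nr4a2* (5.04 ± 0.663) and *Egr2* (2.25 ± 0.210). Here *Egr1*, *Fos*, *Nr4a1* and *Nr4a3* formed a run in which each overlapped the next, as did *Fosl2*, *Egr3* and *Nr4a2*. *Egr2* moved from rank 7 to rank 10 and *Nr4a3* from rank 9 to rank 6.

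**Figure D4:**
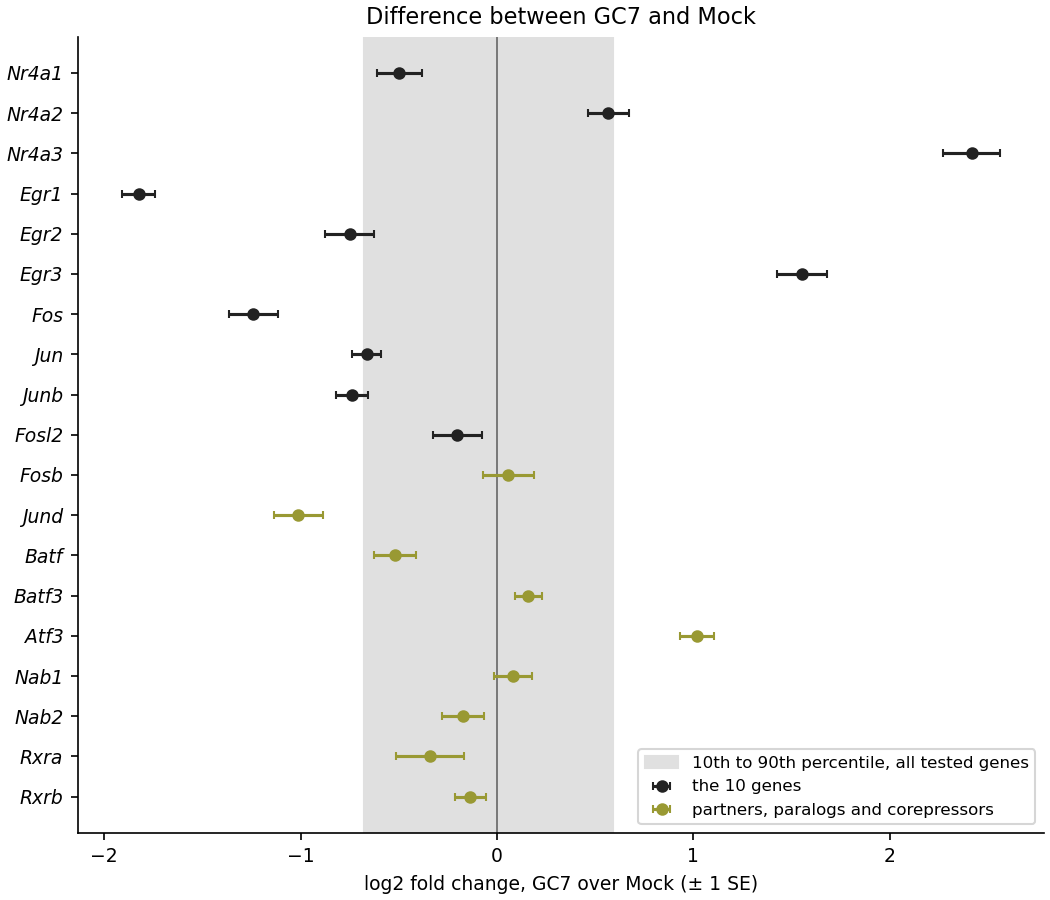
Log2 fold change of GC7 over Mock with 1 SE for the 10 genes (black) and for their tested paralogs, partners and corepressors (olive). The grey band holds the central tested genes, from the 10th percentile at -0.67 to the 90th at 0.59, and *Nr4a3*, *Egr3* and *Atf3* lie to its right while *Egr1*, *Egr2*, *Fos*, *Junb* and *Jund* lie to its left.

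Other bZIP proteins, which can pair with or compete against FOS and JUN, moved both ways. Of 12 tested, 5 fell, 3 rose and 4 did not pass the test, with a median log2 fold change of -0.04. The shares over all tested genes were 23.5% lower and 23% higher. *Jund*, the third JUN gene, had 318, 395, 286 and 314 CPM in Mock 1 to 4 and 173, 181, 123 and 174 CPM in GC7 1 to 4, and fell by 1.01 on the log2 scale (SE 0.125, FDR = 2.4e-05). *Fosb* was spread widely and did not pass the test, with 217 ± 22.5 CPM in Mock and 226 ± 46.9 CPM in GC7 (log2 fold change 0.06 ± 0.130, SE). *Fosl1* was below the filter, at 0.831 ± 0.253 CPM in Mock and 2.81 ± 0.831 CPM in GC7, from 11 to 21 and from 40 to 69 counts.

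*Batf*, which joins IRF4 and JUN proteins at composite sites in T cells, fell by 0.52 on the log2 scale, from 29.3 ± 4.52 to 20.4 ± 1.70 CPM (FDR = 0.0013). Its relative *Batf3* was not called at an FDR of 0.060, with 37.9 ± 1.26 and 42.4 ± 2.93 CPM. *Atf3*, a stress-induced bZIP factor, rose by 1.02 ± 0.087 (SE; FDR = 1.0e-06) on the log2 scale, from 24.5 ± 0.878 to 49.6 ± 5.88 CPM. *Maff*, a small MAF protein without an activation domain, fell by 1.65 (SE 0.0882, FDR = 1.9e-08) and *Nfil3*, a repressor also known as E4BP4, fell by 1.03 (SE 0.107, FDR = 5.4e-06).

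Further immediate early genes moved both ways. Of 20 tested, 10 fell, 5 rose and 5 did not pass the test, with a median log2 fold change of -0.28, where 23.5% of all tested genes were lower and 23% higher. Leaving out 1 library gave 10 (without GC7 2) to 15 calls in this list. *Ier3*, a survival factor, fell by 1.89 on the log2 scale (SE 0.115, FDR = 5.2e-08), *Gadd45b*, a stress sensor, by 0.91 (FDR = 7.5e-06) and *Klf10*, a TGF-β-inducible zinc finger factor, by 0.87 (FDR = 2.2e-05). *Cd83*, a surface protein of activated lymphocytes and dendritic cells, had 0.451 to 1.44 CPM in Mock and 9.56 to 13.4 CPM in GC7. It passed the filter only through the GC7 libraries, so it had to differ to be tested and its test is not given. It is in the counts above, and without it the list had 19 tested genes, of which 10 fell, 4 rose and 5 did not pass the test (median -0.32). The same holds for the dendritic cell factor *Zbtb46*, with 0.251 to 0.595 CPM in Mock and 3.37 to 4.74 CPM in GC7, while *Flt3*, *Csf1r* and *Itgax* stayed under 1 CPM on average in both groups. The part of other cells in the *Cd83* value was not tested.

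Genes that carry the signal to these promoters were read as 3 lists. Of 13 MAPK cascade kinases, 6 fell, 2 rose and 5 did not pass the test (median -0.13). Over all tested genes 23.5% were lower and 23% higher. Scaled by library totals, 5 kinases instead of 8 were called. *Map2k1* (MEK1) fell by 0.87 on the log2 scale (SE 0.067, FDR = 4.0e-07) and *Mapk3* (ERK1) by 0.71 (FDR = 3.9e-06). The 2 that rose were *Map2k4*, by 0.63 (FDR = 2.0e-06), and *Mapk9* (JNK2), by 0.49 (FDR = 3.3e-05), both kinases of the JNK pathway, of which *Map2k7* fell by 0.25 (FDR = 0.0061) and *Mapk8* did not pass the test. The other 3 that fell, *Map2k3*, *Map2k6* and *Mapk14*, are kinases of the p38 pathway.

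Of 14 upstream transcription factors, 5 fell, 2 rose and 7 did not pass the test (median -0.16). Among all tested genes 23.5% were lower and 23% higher. With scaling by library totals, 4 of these factors instead of 7 were called. *Elk3*, a partner of serum response factor, fell by 0.69 on the log2 scale (FDR = 1.1e-06) and *Mef2d*, a factor known to drive *Nr4a1* after calcium signals, fell by 0.64 (FDR = 2.0e-05). *Creb1*, which binds the cAMP response element, rose by 0.40 (FDR = 0.0012). Of 8 NFAT and calcineurin genes, 1 fell, 3 rose and 4 did not pass the test (median -0.07), against the same 23.5% and 23%. *Nfatc1*, *Nfatc2* and *Nfatc3* are also counted among the upstream factors. *Nfatc2* fell by 0.48 (FDR = 0.0018), while *Nfatc1* rose by 0.32 (FDR = 0.0028), *Nfat5*, the osmotic stress member, by 0.82 (FDR = 0.0013) and *Rcan1*, a calcineurin-regulated inhibitor of calcineurin, by 0.59 (FDR = 9.9e-04).

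Genes for feedback on ERK signalling formed a further list. Of 11 MAPK phosphatases and Sprouty or Spred inhibitors, 5 fell, none rose and 6 did not pass the test (median -0.33), where 23.5% of all tested genes were lower and 23% higher. *Dusp2* fell by 0.97 on the log2 scale (SE 0.0931, FDR = 2.9e-06), *Dusp5*, a nuclear ERK phosphatase, by 0.63 (FDR = 3.3e-06), *Dusp6*, a cytoplasmic one, by 0.39 (FDR = 1.4e-04) and *Spry2* by 0.62 (FDR = 2.3e-04).

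**Figure D5:**
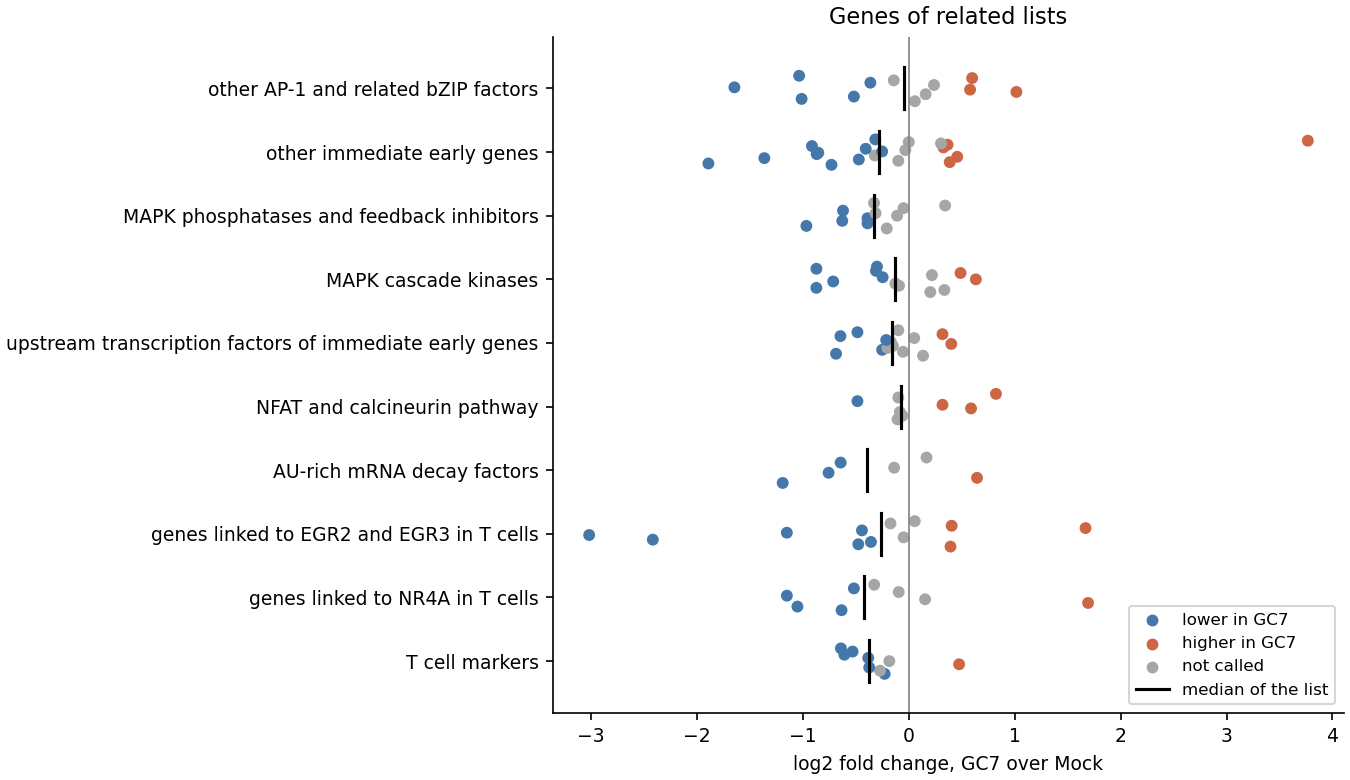
Log2 fold change of GC7 over Mock for each tested gene (point) of 10 related lists, coloured by the call at an FDR under 0.01, with the median of each list as a black bar. The list medians run from -0.42 to -0.04, and the points of *Cd83*, *Crtam* and *Rnf128* are of genes that passed the filter through 1 group only.

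Proteins that bind AU-rich elements control how long many such transcripts last. Of 6 genes in that list, 3 fell, 1 rose and 2 did not pass the test (median -0.39). For comparison, 23.5% of all tested genes were lower and 23% higher. *Zfp36* (tristetraprolin), which binds AU-rich elements and is itself an immediate early gene, fell by 1.19 on the log2 scale (SE 0.0732, FDR = 5.8e-08), from 206 ± 13.0 to 90.5 ± 7.41 CPM. Its relatives diverged, since *Zfp36l2* fell by 0.76 (FDR = 2.7e-06) and *Zfp36l1* rose by 0.64 (FDR = 6.8e-05). *Hnrnpd* (AUF1) fell by 0.64 (FDR = 1.7e-04).

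The 3′ UTRs of all 10 genes hold the pentamer ATTTA, the core of an AU-rich element, in the transcript with the longest coding sequence. The number ran from 2 (*Egr1* and *Junb*) to 8 (*Fosl2*), with 3 in *Nr4a1*, *Nr4a2* and *Egr2*, 4 in *Fos* and *Jun*, 5 in *Nr4a3* and 7 in *Egr3*. Among 10049 tested genes with a 3′ UTR, 66.5% had at least 1 and the median density was 1.25 per kb. All 10 genes were above that median, from 1.62 per kb in *Nr4a3* to 5.52 per kb in *Nr4a1*. Among the genes that rose the density was 1.62 per kb in *Nr4a3*, 2.26 in *Nr4a2* and 2.65 in *Egr3*, and among those that fell it ran from 1.65 in *Egr1* to 5.52 in *Nr4a1*.

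Triplets of proline codons, a sequence on which ribosomes are known to depend on eIF5a, were counted in the coding sequences. Overlapping triplets were each counted, so a longer run of prolines gives more than 1, and the numbers are not of separate runs. They were present in 7 of the 10 genes, with 7 in *Egr2*, 6 in *Nr4a1*, 2 in *Nr4a3* and 1 each in *Nr4a2*, *Egr1*, *Egr3* and *Junb*, and absent from *Fos*, *Jun* and *Fosl2*. Of 10185 tested coding genes, 24.6% had at least 1 such triplet, and the share was 24.7% among genes that fell and 23.3% among genes that rose. These are features of the message, and protein levels were not analysed here.

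Downstream genes were read from lists of genes linked to these factors in T cells, whose regulation in these cells is not known from the counts. Of 12 genes linked to EGR2 and EGR3, 6 fell, 3 rose and 3 did not pass the test (median -0.26). Over all tested genes the shares were 23.5% lower and 23% higher. *Ndrg1*, an anergy-associated factor, fell by 3.02 on the log2 scale (SE 0.0756, FDR = 3.7e-11), from 372 ± 13.2 to 45.9 ± 4.16 CPM. *Rnf128* (GRAIL), an anergy-associated ubiquitin ligase, had 4.56 to 5.13 CPM in Mock and 0.584 to 1.21 CPM in GC7. *Crtam*, an adhesion receptor of activated CD8+ T cells, had 2.15 to 2.81 CPM in Mock and 6.70 to 8.28 CPM in GC7. Both are in these counts but passed the filter only through the group where they are high, so their tests are not given. Without them the list had 10 tested genes, of which 5 fell, 2 rose and 3 did not pass the test (median -0.26).

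Of 8 genes linked to NR4A, 4 fell, 1 rose and 3 did not pass the test (median -0.42). Again, 23.5% of all tested genes were lower and 23% higher. *Lag3*, an inhibitory receptor also in the EGR list, fell by 1.15 on the log2 scale (FDR = 1.7e-07), from 389 ± 16.4 to 175 ± 19.0 CPM. *Pdcd1* (PD-1) fell by 0.63 (FDR = 3.1e-05). *Tox*, a factor of exhausted T cells that works with NR4A proteins, rose by 1.69 ± 0.133 (SE; FDR = 4.8e-07), from 7.51 ± 0.881 to 24.3 ± 4.15 CPM.

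For each of the 10 genes the tested gene with the nearest pattern was found, as the smallest root mean square difference of mean-centred log2 CPM over the 8 libraries. The nearest to *Nr4a3* was *Cd74* (0.178), to *Egr3* *Slc7a3* (0.0868), to *Egr1* *Plin3* (0.124), to *Fos* *Itgb7* (0.108) and to *Junb* *Mtch1* (0.0211). The nearest to *Nr4a1* was *Gm7367* (0.0789), to *Nr4a2* *Smco4* (0.0587), to *Egr2* *Slc26a11* (0.0736), to *Jun* *Pim2* (0.0476) and to *Fosl2* *Ythdc2* (0.0565). Within the 10, *Jun* and *Junb* were the closest pair (0.116), and *Nr4a3* and *Egr3* were each other's nearest (0.463). *Cd74*, which encodes the class II invariant chain known from antigen-presenting cells, had 1.66 to 2.42 CPM in Mock and 11.5 to 13.3 CPM in GC7 and passed the filter only through the GC7 libraries, so its test is not given. The part of other cells in the *Cd74* value was not tested. With 11189 genes to choose from, a near pattern is a description of these 8 libraries.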

How the data were processed

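The authors deposited 1 table of raw counts per library, with no normalisation. For these, paired-end reads were trimmed with Cutadapt, aligned to GRCm38 (Ensembl 96) with STAR and counted per gene with featureCounts. The strand setting and the treatment of reads with several positions are not given in the sources used here. A BLAST (version 2.17.0) search for matches of at least 200 bases and 90% identity found no near-identical copy of a member outside the overlapping antisense gene of *Jun*.

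The 8 libraries were compared, 4 GC7 against 4 Mock, taken as biological replicates as the study's methods state. Genes above 3 CPM in at least 4 libraries were tested with edgeR, the tool the study names for this comparison. The group was the only term, scaling was by TMM, and p-values of the quasi-likelihood F test were adjusted by Benjamini-Hochberg (edgeR 4.0.16 under R 4.3.3). The SE is the log2 fold change divided by the square root of F. Levels are TMM-scaled CPM over the tested genes, with a prior count of 2 on the log2 scale, and levels per length divide by merged exon bases. The test was tried on simulated counts first. Alternatives were RLE factors, library totals, DESeq2 (version 1.42.0), limma-voom (limma version 3.58.1), robust estimation, no filter, filterByExpr, a replicate block, each library left out, and 2 libraries left out together, the last chosen after seeing the data. Motif, UTR and codon counts used Python (version 3.11.15), pandas (version 2.3.3) and Biopython (version 1.88).

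The members and lists were chosen with earlier results of these data known. All members are named, together with up to 4 genes of smallest FDR per list and a set of named paralogs, partners and corepressors. *Flt3*, *Csf1r*, *Itgax*, *Cd4*, *Ncr1*, *Klrb1c*, *Col3a1*, *Cdh5*, *Ms4a1*, *Pax5*, *C1qa*, *Prdx2* and *Junos* were named outside that rule, after their values were seen. The MAPK kinases *Map2k3*, *Map2k6*, *Map2k7*, *Mapk8* and *Mapk14* and the NFAT gene *Nfatc3* were also named outside it.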

Additional observations from a re-analysis of the deposited data

Results flagged for a closer look

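Dixon's ratio, the gap between an extreme library and its nearest companion over the range of the group, was taken for 38 groups of 4 libraries, and in 5 it was above Dixon's 95% critical value, which chance gives in about 1 of 20 groups. *Egr1* was lowest in GC7 2 (ratio 0.841, 95.5 CPM) and *Egr2* was highest in GC7 3 (0.883, 8.71 CPM). *Junb* was highest in Mock 2 (0.859, 510 CPM) and lowest in GC7 3 (0.861, 235 CPM), and *Jund* was lowest in GC7 3 (0.854, 123 CPM). The calls of *Egr1*, *Egr2* and *Junb* held without any single library.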

How the results depend on the processing

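Of 170 values for the 10 genes under 17 alternatives, 169 kept their direction and their side of the FDR threshold and none reversed. The exception was *Fosl2*, which was called lower (log2 fold change -0.24, FDR = 0.00693) with both Mock 2 and GC7 3 left out, so that 7 members were lower; the cause was not tested. Over all its alternatives its value ran from -0.32 to -0.11 and its FDR from 0.00693 to 0.505. Library totals moved the median of all tested genes from 0.02 to 0.11. With each library left out in turn, genes called lower numbered 2196 to 2733 and genes called higher 2032 to 2784. *Nr4a1*, the called member with the largest FDR, ranged from -0.58 to -0.38. Of 289 counts of called genes in the lists, 266 were within 1.5 times the reported count. With library totals, 4 upstream factors and 5 MAPK kinases were called instead of 7 and 8. *Cd83*, *Crtam* and *Zbtb46* passed the filter through the GC7 libraries alone and *Rnf128* through the Mock libraries alone, so each was not tested without any 1 of those libraries.

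Samples with the same replicate number did not deviate together in every pair (correlations of 0.27, -0.12, 0.20 and -0.18), so the numbers were not taken as pairs. A fit with the replicate block gave 6 members lower and 3 higher as well, and 2485 lower and 2382 higher genes. *Egr4* and *Fosl1* were among the listed genes under the filter, and the effect of depth was not tested.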

Other observations

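Chaperone genes, which respond to heat and cell handling as some immediate early genes do, were mixed. Of 6 tested, 2 fell, 3 rose and 1 did not pass the test, with a median log2 fold change of 0.09. Of all tested genes, 23.5% were lower and 23% higher. *Hspe1*, a mitochondrial chaperonin subunit, rose by 0.92 (edgeR FDR = 2.4e-06) and *Hspa8*, the constitutive HSC70, by 0.43 (FDR = 3.8e-04), while *Dnajb1* fell by 0.55 (FDR = 5.2e-06) and *Hsp90aa1* by 0.52 (FDR = 9.1e-05). The classic heat-inducible genes *Hspa1a* and *Hspa1b*, named outside the rule, were under the filter at 1.45 and 3.09 CPM in Mock and 1.09 and 2.12 CPM in GC7.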
